A study of Mus musculus with 2 samples.

Results

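The 31 genes described here are a list of mouse genes known to be induced by type I interferon, chosen by name. Matching the names to the gene symbols of the deposited matrices found 30 of the 31 among 32285 genes, and the antiviral GTPase gene Mx1 was not analysed here. The libraries were prepared from liver cells other than hepatocytes, taken from male mice aged 5 months that ate standard chow and received no drug or special diet. Hep-ADKTg mice (Tg library) overexpress adenosine kinase, the enzyme that turns adenosine into AMP, from the albumin promoter, which is active in hepatocytes. Hep-ADKWT mice (WT library) are described as their matched controls. Each group is 1 library of droplet-captured cells, made from collagenase-digested liver, and the labels speak of both a mouse and mice, so whether 1 or several animals went into it is not clear. Genotype, animal and library preparation therefore cannot be told apart, no difference has a replicate check, and no p-value is given. The design compares cells of the liver next to hepatocytes with and without raised adenosine kinase.

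Type I interferons are secreted proteins that bind a receptor made of the chains Ifnar1 and Ifnar2, which almost all nucleated cells carry. The receptor's kinases Jak1 and Tyk2 start a signal that reaches the nucleus through a complex holding Stat2 and Irf9, which binds a DNA element called the interferon-stimulated response element (ISRE). The induced genes block viral entry, replication and protein synthesis, sense viral RNA and DNA, or set the strength of the next response. Even without infection, liver cells hold low tonic levels of these transcripts, and the liver's macrophages, endothelium and plasmacytoid dendritic cells (pDC) are known for sensing material that arrives from the gut.

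The ISRE core was present in the promoters of 14 of the 23 members found in the promoter table, and stretches from 5 of these that recur below, and from the near-identical pair Ifit3 and Ifit3b, are shown first. Sequences are from RefSeq promoters on GRCm38.p6, read 5′ to 3′ on the gene's own strand, with each match to the ISRE core (GAAA, any 2 bases, GAAA), or to its reverse complement, in capitals. All 7 stretches lie before the annotated start. They are chr4:156200840-156200919 (minus strand) for Isg15, chr19:34640769-34640848 (plus) for Ifit1, chr19:34583372-34583451 (plus) for Ifit3, chr19:34607768-34607847 (plus) for Ifit3b, chr12:26456528-26456607 (minus) for Rsad2, chr8:71537552-71537631 (minus) for Bst2 and chr5:120777690-120777769 (minus) for Oas3.
Isg15: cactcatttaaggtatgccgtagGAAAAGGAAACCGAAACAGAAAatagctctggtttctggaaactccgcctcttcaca
Ifit1: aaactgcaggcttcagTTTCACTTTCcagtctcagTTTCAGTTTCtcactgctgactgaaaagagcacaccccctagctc
Ifit3: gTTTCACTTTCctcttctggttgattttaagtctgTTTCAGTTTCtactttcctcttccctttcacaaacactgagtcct
Ifit3b: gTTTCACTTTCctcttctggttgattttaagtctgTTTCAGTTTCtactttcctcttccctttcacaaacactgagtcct
Rsad2: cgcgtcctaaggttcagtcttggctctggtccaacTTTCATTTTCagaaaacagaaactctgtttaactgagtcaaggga
Bst2: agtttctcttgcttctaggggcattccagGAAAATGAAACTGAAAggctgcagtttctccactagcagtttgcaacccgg
Oas3: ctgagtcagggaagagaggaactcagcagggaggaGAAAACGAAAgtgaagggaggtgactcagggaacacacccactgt

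Isg15 held 3 overlapping matches in a row, and Bst2 held 2 that overlap. The 80 bases of Ifit3 and Ifit3b are letter for letter the same, although the genes lie at different positions on chromosome 19. Of the 23 members with a promoter in the table, 14 (60.9%) held the core on either strand within the 300 bases from 250 before the start to 50 after it, against 3.99% of all 27025 genes with a promoter. The 23 matches in these 14 genes began between −222 and 32 from the start base, with a median of −75. Another element, TTCNNNGAA, known from genes that answer to interferon gamma, was in 4 of the 23 members (17.4%) and in 9.55% of all genes. The ISRE core was not found in the windows of Cmpk2, Herc6, Ifi35, Ifi44, Ifit2, Irf7, Irf9, Oasl2 and Xaf1. A match is a run of letters and was not tested as a binding site.

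**Figure D1:**
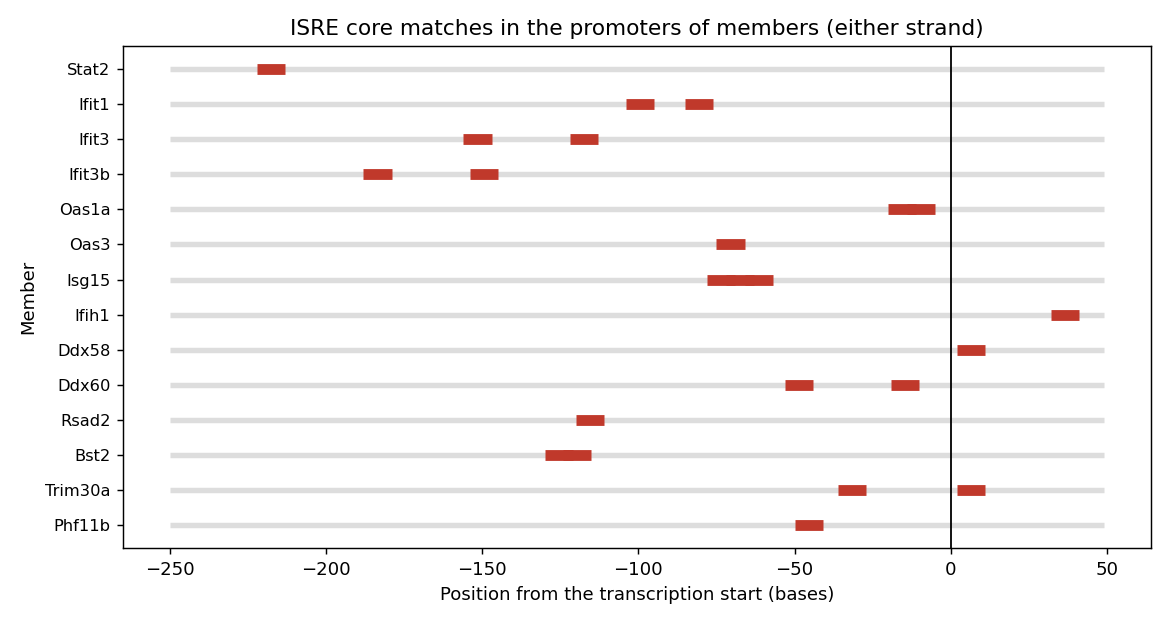
Positions of matches to the ISRE core (red, either strand) in the RefSeq promoters (grey) of the 14 members that hold 1 or more; the x axis is the distance in bases from the start base at 0. Most of the 23 matches lie in the 150 bases before the start, and those of Ifih1 and Ddx58 and 1 of Trim30a begin after it.

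After filters, 12492 WT and 14466 Tg cells were kept, with a median of 4807.5 and 2772.5 UMIs (unique molecular identifiers, each 1 captured transcript) and 1749 and 1172.5 genes. The members gave 112195 and 86841 UMIs, 0.138% and 0.112% of all UMIs of kept cells. Cells were clustered without the members and without the other interferon genes, so that these did not shape the clusters. Cell classes were then named "-like" from marker genes, of which at least 6 of each list of 7 to 9 were enriched in their class (Lum and Sdc1 were not). In 13 classes, both libraries held at least 50 cells. A further 1649 WT and 1538 Tg cells stayed unnamed. Most of them were cluster 2 (1279 and 1197 cells), which is of low depth and rich in hepatocyte transcripts. Barcode sequences shared by the libraries numbered 57 among kept cells. Adk, the overexpressed gene, stood at 471 and 537 CPM (UMIs scaled to 1000000 per class and library) in hepatocyte-like cells, a log2 ratio of 0.19 (0.11 to 0.26), and at 25.7 and 89.3 CPM in B cell-like cells. The 3′ end of the transgene's transcript is not described, and a count of 3′ tags therefore checks neither label. A list of 36 hepatocyte transcripts made up 0.338% to 0.886% of UMIs in most other classes of the WT library (plasma cell-like 0.180%) and 0.795% to 5.51% in the Tg library, and all 36 were higher in the Tg library in each of the 12 compared classes other than hepatocyte-like cells. Its share is given beside results below. All ratios were also computed with the hepatocyte profile subtracted, as given in the closing section.

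Levels are in CPM, from the summed UMIs of a class, and ratios are log2 of the Tg over the WT level. Values in parentheses are exact intervals at 95% that cover counting error only: Poisson for a level, conditional binomial for a ratio. Inside parentheses, a ratio is followed by its interval after a comma. Levels are compared between classes and libraries for the same gene, not between genes. A gene entered a comparison of the libraries in a class where it had at least 50 UMIs over both, and a ratio of 1.5-fold or more in either direction is called a difference.

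Summed over the 30 members, pDC-like cells stood highest in both libraries, at 4581 (4518 to 4646) CPM in WT and 5976 (5833 to 6122) CPM in Tg. Kupffer cell-like cells, named after the liver's resident macrophages, followed at 3045 and 3793 CPM. The make-up of that class differed between the libraries. Cx3cr1, a gene of monocyte-derived macrophages, stood there at 996 and 448 CPM, and the resident macrophage gene Clec4f at 80.4 and 315 CPM. At the finer clustering resolution of 2.0, which names dendritic cells apart from monocyte-like cells, monocyte-like cells came second instead, at 3468 and 4449.8 CPM. Sinusoidal endothelial (LSEC)-like cells stood at 1646 (WT) and 1942 (Tg) CPM. Monocyte or macrophage-like, neutrophil-like, stellate-like, fibroblast or mesothelial-like and vascular endothelial-like cells lay between 1916 and 2509 CPM in WT and between 2039.8 and 3117 CPM in Tg. The lymphocyte-like class had 1078 and 1421 CPM, B cell-like cells 999 and 1149 CPM, plasma cell-like cells 1133 and 750.2 CPM and erythroid cell-like cells 579 and 673 CPM. Hepatocyte-like cells were lowest, at 329 and 445 CPM. In pDC-like cells Bst2 and Ifi27l2a gave most of the UMIs behind the sum. Without Bst2, the pDC-like sum would lie below that of Kupffer cell-like cells in both libraries. The members are therefore given singly below. The class named as a member's highest is the one with the highest mean of both libraries, and "on average" marks the members whose highest class differed between WT and Tg.

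**Figure D2:**
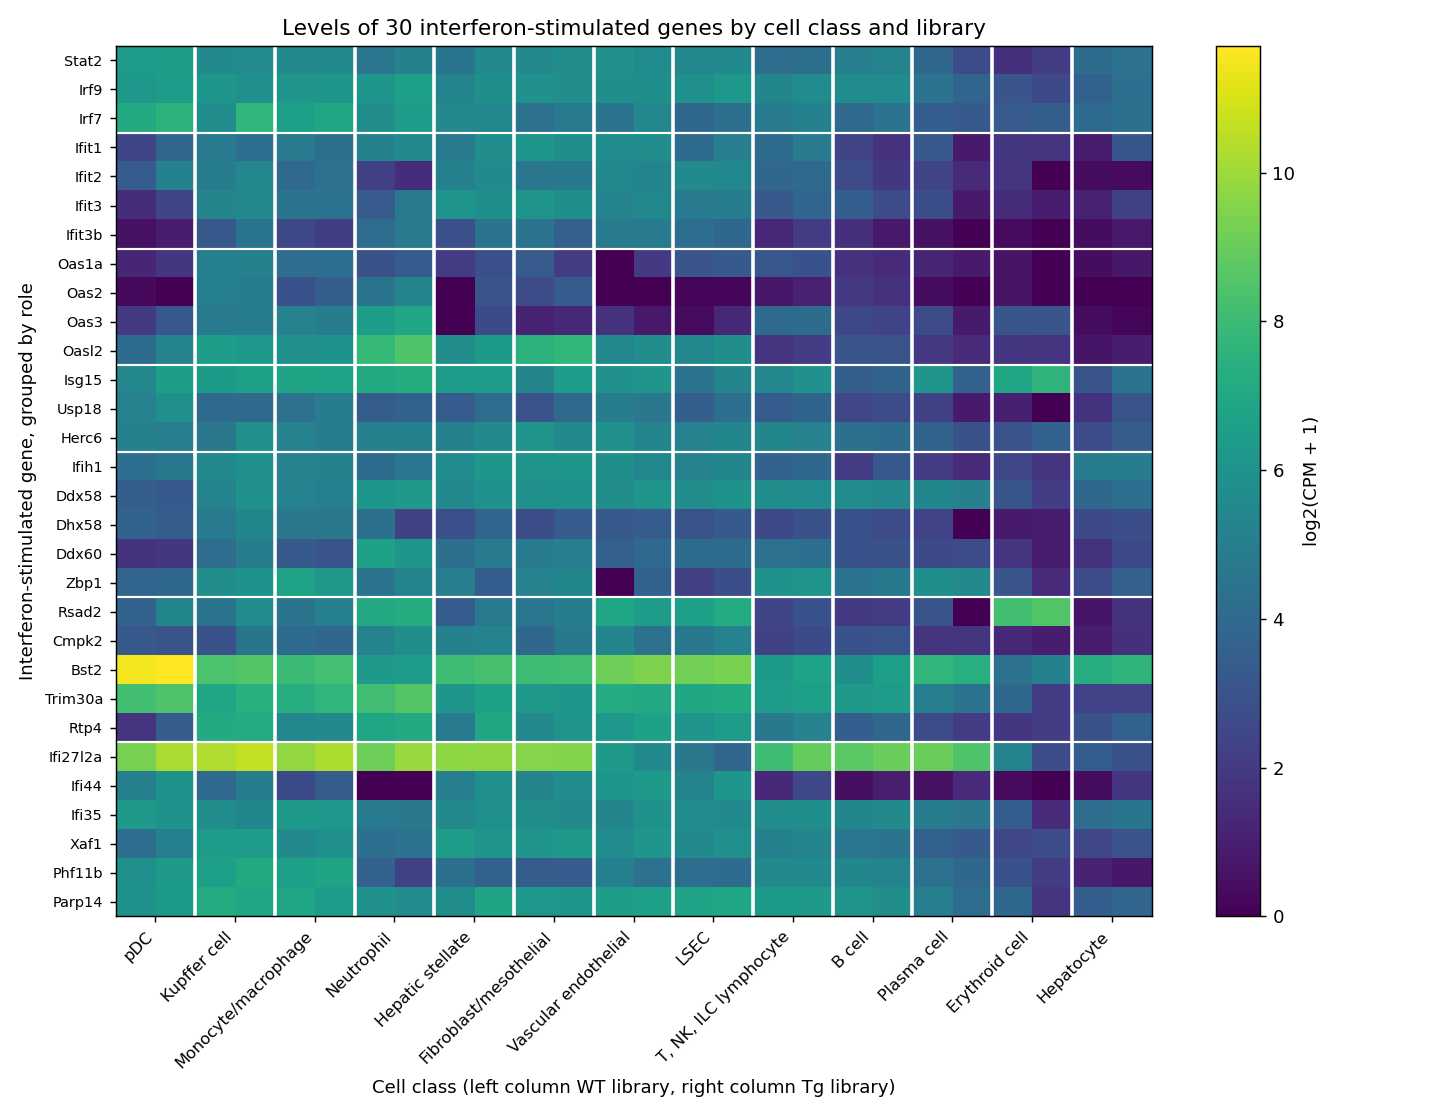
Level of each of the 30 members (rows, grouped by role between white lines) in 13 cell classes (columns, WT library left and Tg library right), as log2(CPM + 1). Bst2 in pDC-like cells and Ifi27l2a in Kupffer cell-like cells stand out, Rsad2 is bright in erythroid cell-like cells, and the left and right columns of a class look alike for most members.

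Among the transcription factors of the response, Stat2 was highest in pDC-like cells, and Irf7 was so on average. Irf7 (ENSMUSG00000025498, chromosome 7, 141262706–141266481, GRCm38, GENCODE M21), the factor that amplifies interferon production, stood at 141 (130.1 to 153) and 191 (166 to 218) CPM in WT and Tg pDC-like cells. In Kupffer cell-like cells it stood at 52.2 (33.4 to 77.6) and 206 (174 to 242) CPM. These were its highest class in Tg, where the interval overlapped that of pDC-like cells, while the WT intervals did not overlap. Stat2, a signal carrier of the receptor, was at 86.1 and 93.1 CPM in pDC-like cells, its highest class in both libraries. Irf9, which gives the complex with Stat2 its DNA contact, had its highest mean in neutrophil-like cells, at 69.6 and 95.5 CPM, which did not separate from pDC-like cells at 75.5 and 85.9 CPM.

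The Ifit genes encode proteins that bind viral RNA and hinder its translation, and their highest means were in non-immune cells. Ifit1 stood at 69.3 and 56.7 CPM in fibroblast or mesothelial-like cells and at 50.1 and 51.7 CPM in vascular endothelial-like cells, with overlapping intervals. On average Ifit2 was highest in LSEC-like cells (45.7 and 43.2 CPM) and Ifit3 in stellate-like cells (66.2 and 56.3 CPM), and Ifit3b was highest in vascular endothelial-like cells (26.2 and 27.7 CPM). Their lymphocyte, B, erythroid and hepatocyte-like levels were lower, for Ifit2 down to 0.290 and 0.274 CPM in hepatocyte-like cells. Ifit3 and Ifit3b are near-identical copies, and counting may split their reads between them.

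The oligoadenylate synthetases, which make the second messenger that switches on RNA decay, had their highest means in neutrophil-like or Kupffer cell-like cells. Oas3 stood at 91.5 (74.5 to 111) and 118 (90.8 to 152) CPM in neutrophil-like cells, clear of the next class, monocyte or macrophage-like cells at 35.8 and 29.2 CPM. Oasl2, a relative with ubiquitin-like domains, was also highest in neutrophil-like cells (227 and 351 CPM). Oas1a, and on average Oas2, were highest in Kupffer cell-like cells, at 32.6 and 34.8 CPM and 32.6 and 29.2 CPM. Oas1a has close paralogs in its cluster on chromosome 5, so its share of reads is uncertain.

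Isg15, Usp18 and Herc6 form the ubiquitin-like ISG15 system: the modifier, its protease and its ligase. Isg15 (ENSMUSG00000035692, chromosome 4, 156199424–156200818) was highest on average in erythroid cell-like cells, at 116 (105 to 127) and 197 (172 to 223) CPM, with neutrophil-like cells at 143 and 151 CPM not separated from them. Usp18, which also shuts the interferon receptor down, was highest in pDC-like cells (35.6 and 57.0 CPM). Herc6 was highest on average in fibroblast or mesothelial-like cells (68.1 and 45.7 CPM), although Kupffer cell-like cells were highest in Tg (23.9 and 59.9 CPM), and it had the least similar order of classes between the libraries (Spearman's rho 0.626 over 13 classes).

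Sensors of nucleic acid had their highest mean levels in 4 different classes. Ifih1 (MDA5) was highest on average in fibroblast or mesothelial-like cells (66.4 and 69.3 CPM), and Ddx58 (RIG-I) in neutrophil-like cells (69.6 and 78.3 CPM), where vascular endothelial-like cells overlapped it. Dhx58 (LGP2), the regulator of both, was highest in Kupffer cell-like cells (26.1 and 40.4 CPM). Ddx60 stood at 103 (85.2 to 124) and 72.6 (51.4 to 99.6) CPM in neutrophil-like cells, against 26.4 and 31.5 CPM in the next class. Zbp1, the sensor of left-handed nucleic acid that can trigger cell death, was highest in monocyte or macrophage-like cells (105 and 77.1 CPM).

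Among the antiviral effectors, Bst2 and Rsad2 were each separated from the next class in both libraries. Bst2 (tetherin, ENSMUSG00000046718, chromosome 8, 71534255–71537456), which holds budding virus at the cell surface and is a known pDC marker in mice, stood at 2883 (2832 to 2934) and 3337 (3230.3 to 3447) CPM in pDC-like cells and at 594 and 651 CPM in LSEC-like cells, the next class. Rsad2 (viperin, ENSMUSG00000020641, chromosome 12, 26442746–26456452), which makes a chain-ending nucleotide, was highest in erythroid cell-like cells, at 284 (268 to 302) and 362 (329 to 398) CPM, ahead of neutrophil-like cells at 132 and 153 CPM. A UMI of Rsad2 was found in 63.9% and 46.9% of erythroid cell-like cells (median depth 8109 and 5058 UMIs) and in 1.26% and 1.30% of lymphocyte-like cells (5528 and 4204.5 UMIs), shares that differ between the classes far beyond counting error. Cmpk2, the mitochondrial kinase gene next to Rsad2, did not share its erythroid level: it stood at 1.57 and 0.833 CPM there and was highest on average in neutrophil-like cells (36.6 and 55.4 CPM). Trim30a was highest on average in neutrophil-like cells (273 and 386 CPM), and Rtp4 in Kupffer cell-like cells (143 and 148 CPM). Trim30a has near-identical relatives, so its count is uncertain.

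The remaining members are interferon-induced genes of less settled function. Ifi27l2a (ENSMUSG00000079017, chromosome 12, 103442167–103443680) ranged from 1265 (1164 to 1372) and 1567 (1477 to 1662) CPM in Kupffer cell-like cells to 10.2 and 6.43 CPM in hepatocyte-like cells. Ifi44 was highest in vascular endothelial-like cells (69.8 and 77.2 CPM), and no UMI of it was counted in neutrophil-like cells of either library. Xaf1, a gene linked to cell death, Phf11b and Parp14, an ADP-ribosyl transferase gene, were highest on average in Kupffer cell-like cells, at 86.9 and 86.3 CPM, 95.6 and 139 CPM and 146 and 119.7 CPM. The highest class was instead stellate-like for Xaf1 (88.3 and 65.5 CPM) and monocyte or macrophage-like for Phf11b (95.7 and 113 CPM) in WT, and LSEC-like for Parp14 (107 and 121 CPM) in Tg, each with overlapping intervals. Ifi35 was highest in monocyte or macrophage-like cells (79.5 and 74.9 CPM). Phf11b has close paralogs, and its count is uncertain.

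The class with the highest level was the same in both libraries for 17 of the 30 members, and it was separated from the next class in both for 5: Oas3, Ddx60, Rsad2, Bst2 and Ifi27l2a. Counting by the mean of the libraries, 8 members were highest in Kupffer cell-like cells, 7 in neutrophil-like cells and 4 in pDC-like cells. The order of the 13 classes was much alike in WT and Tg, with Spearman's rho between 0.626 and 0.978 (Bst2) and a median of 0.896, given as a description over classes that share a library.

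Between the libraries, pDC-like, neutrophil-like, LSEC-like, stellate-like, lymphocyte-like and Kupffer cell-like cells had higher median levels of the members in Tg than in WT, while the median of all genes in those classes was between −0.19 and 0.12. Hepatocyte-like cells had the highest median of the members and the lowest summed level. Monocyte or macrophage-like, B cell-like, fibroblast or mesothelial-like and vascular endothelial-like cells had medians within 0.13 of 0, and the medians of plasma cell-like (−0.64) and erythroid cell-like cells (−0.85, over 6 members) were lower, together with those of all genes there (−0.56 and −0.89). Summed over the members, the Tg level was 1.36 (1.28 to 1.45) times the WT level in neutrophil-like, 1.32 (1.29 to 1.34) times in lymphocyte-like and 1.30 (1.27 to 1.34) times in pDC-like cells. The sum was 1.25 times in Kupffer cell-like, 1.23 times in stellate-like, 1.18 times in LSEC-like and 0.662 times in plasma cell-like cells.

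**Figure D3:**
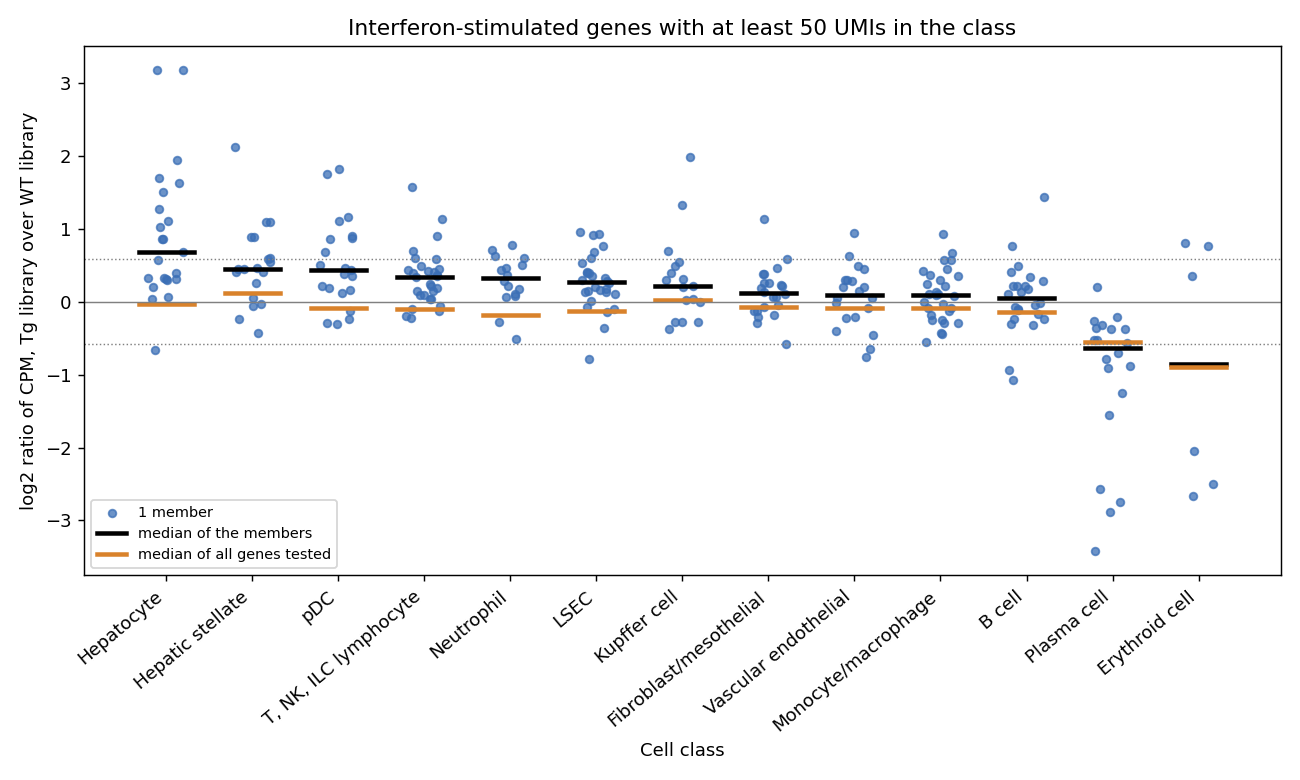
log2 ratio of Tg over WT for each member with at least 50 UMIs in a class (points), with the median of those members (black bar) and of all genes tested in the class (orange bar); dotted lines mark 1.5-fold. The black bars sit above the orange ones in 12 of the 13 classes and below in plasma cell-like cells.

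In pDC-like cells (400 WT and 145 Tg cells), 8 of 21 members were higher by 1.5-fold or more and none was lower, where 5.41% of 8059 genes were higher and 11.7% lower. The median of the members was 0.44, and that of all genes −0.093. Isg15 stood at 41.1 (35.3 to 47.6) and 92.2 (75.2 to 112) CPM, a log2 ratio of 1.17 (0.80 to 1.53). Ifit2 (9.70 and 34.4 CPM, 1.82, 1.15 to 2.49) and Rsad2 (11.8 and 39.8 CPM, 1.76, 1.14 to 2.37) had the highest ratios of the class. Their UMIs were few, 42 and 38 for Ifit2, with up to 9 and 12 in 1 cell. Ifi27l2a was at 637 (614 to 662) and 1192 (1128 to 1258) CPM (0.90) and Oasl2 at 16.9 and 36.2 CPM (1.10), and neither pair of intervals overlapped. Bst2 stood at 2883 and 3337 CPM (0.21), short of 1.5-fold. The lowest ratios, those of Ifi35 (−0.30, −0.70 to 0.076), Dhx58, Ddx58 and Herc6, had intervals that span 0. The hepatocyte list took 0.338% and 1.82% of the UMIs of this class.

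In neutrophil-like cells (321 and 196 cells), 4 of 16 members were higher and none lower by that measure, beside 9.74% and 16.0% of 3585 genes. The median was 0.33, against −0.19 for all genes. Ifi27l2a stood at 556 (513 to 603) and 949 (868 to 1036) CPM (0.77, 0.60 to 0.94), and Oasl2 at 227 (199.6 to 257) and 351 (302 to 406) CPM (0.63, 0.35 to 0.91). Irf7 (54.0 and 87.9 CPM) and Cmpk2 (36.6 and 55.4 CPM, 0.60, −0.14 to 1.32) were the other 2 members past 1.5-fold. Isg15 stood at 143 and 151 CPM (0.080, −0.33 to 0.48), and Ddx60 had the lowest ratio at −0.51 (−1.08 to 0.031). The hepatocyte list took 0.886% and 5.51%, the widest gap in points outside hepatocyte-like cells, and neutrophil-like cells were 1 cluster.

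In LSEC-like cells (1655 and 2210 cells), the fenestrated endothelium of the sinusoid, 6 of 28 members were higher and 1 was lower past 1.5-fold, beside 7.11% and 7.41% of 10665 genes. The median was 0.27, against −0.13 for all genes, and 23 of the 28 had ratios above 0. Ifit1 stood at 15.9 (13.1 to 19.1) and 30.8 (26.6 to 35.4) CPM (0.95, 0.61 to 1.30), Ifi44 at 37.4 (33.1 to 42.2) and 71.0 (64.7 to 77.9) CPM (0.92, 0.70 to 1.15) and Isg15 at 20.8 (17.6 to 24.5) and 39.2 (34.5 to 44.3) CPM (0.91, 0.61 to 1.21). Usp18 (10.8 and 18.3 CPM), Zbp1 (3.69 and 5.93 CPM, 0.69, −0.071 to 1.46) and Rsad2 (96.2 and 145 CPM) made up the rest, and 1 Tg cell gave 88 of the 929 Rsad2 UMIs. Ifi27l2a went the other way at 23.7 (20.2 to 27.6) and 13.7 (11.0 to 16.9) CPM (−0.79, −1.18 to −0.40). Ifit3b, Phf11b, Ifi35 and Ifit2, the next lowest, had intervals that span 0. The hepatocyte list took 0.632% and 4.08% of UMIs in the whole class.

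Most WT and Tg LSEC-like cells fell into different clusters, which bears on these values: cluster 7 held 1124 WT and 42 Tg cells, and cluster 6 held 61 and 1173. Within cluster 6 alone, where the hepatocyte list took 2.69% and 2.91% of UMIs, 11 of 24 members were higher and 1 was lower past 1.5-fold, beside 14.6% and 10.1% of 8822 genes, and the median was 0.50. Only 61 WT cells carry that comparison, and cluster 6 was singled out after the data were seen.

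In the lymphocyte-like class (T, NK and ILC cells, 4601 and 2694 cells), 5 of 29 members were higher and none lower past 1.5-fold, beside 8.97% and 5.3% of 11525 genes, with a median of 0.34 against −0.10. Ifi27l2a carried most of the summed gain at 264 (258 to 270.1) and 495 (482 to 508) CPM (0.91, 0.86 to 0.96). Ifi44 (1.58 and 4.73 CPM), Ifit3b, Ifit1 (16.4 and 26.5 CPM) and Rsad2 (4.40 and 6.63 CPM) were the others. Oas1a, Herc6, Ddx60, Parp14 and Ddx58 had the lowest ratios, between −0.22 and −0.060. The hepatocyte list took 0.497% and 3.10% of the UMIs. The libraries again split by cluster, with cluster 1 at 2484 WT and 8 Tg cells and cluster 3 at 229 and 1716. Within cluster 3, with 2.74% and 3.13% of UMIs from the hepatocyte list, 6 of 24 members were higher and none lower past 1.5-fold (7.09% and 6.66% of 9052 genes), and the median was 0.22.

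Within that class, T cell-like and natural killer (NK) cell or ILC1-like clusters were also compared apart. In T cell-like clusters (3910 and 2521 cells), 7 of 29 members were higher and none lower past 1.5-fold, beside 9.18% and 4.16% of 11225 genes, with a median of 0.36. In the NK cell or ILC1-like clusters (691 and 173 cells), none of 20 was higher and 6 were lower, beside 7.4% and 14.7% of 8028 genes, with a median of −0.021. The make-up of the latter differed between the libraries: cluster 15 held 502 WT and 82 Tg cells and cluster 24 held 189 and 91, and the summed level of the members was 1052 and 1265 CPM in cluster 15 and 753 and 637 CPM in cluster 24. Within cluster 15 alone, 5 of 20 members were higher and 4 lower, beside 7.71% and 15.8% of 7265 genes, with a median of 0.085. Isg15 stood at 40 and 60.7 CPM in T cell-like clusters (0.60, 0.46 to 0.74) and at 54.0 and 35.9 CPM in the NK cell or ILC1-like ones (−0.59, −1.22 to −0.014), but its ratio was −0.10 in cluster 15 and −0.50 in the T cell-like cluster 10. Ifit1 was at 16.5 and 27.7 CPM (0.75, 0.53 to 0.96) and at 15.6 and 7.97 CPM (−0.96, −2.46 to 0.23), and its ratio in cluster 10 was −0.52. Ifi27l2a was higher in the T cell-like clusters, with 299 and 522 CPM there against 79.4 and 82.4 CPM. Bst2 was higher in Tg in both, at 0.36 and 0.51. The difference between these parts has no replicate, the NK cell or ILC1-like values rest on few UMIs (73 and 3 for Ifit2, their lowest ratio at −2.03, −4.34 to −0.42), and the split was added after the values of the whole class were seen.

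**Figure D4:**
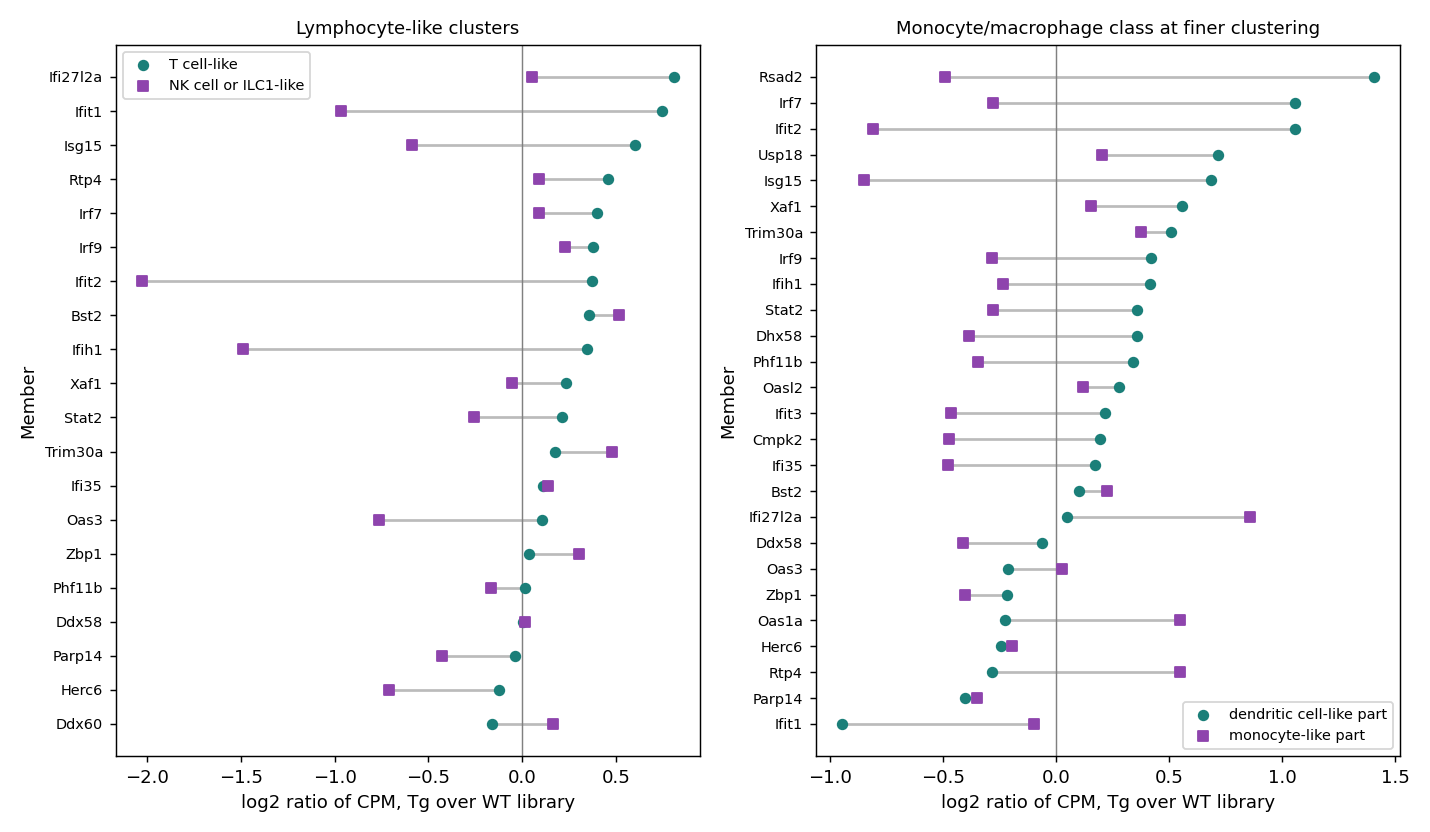
log2 ratio of Tg over WT for members with at least 50 UMIs in both parts named. The left panel shows T cell-like against NK cell or ILC1-like clusters. The right panel shows 2 classes of resolution 2.0 (circles, the class named by cDC1 markers, and squares, the monocyte-like class). Isg15, Ifit1 and Ifit2 are among the members on opposite sides of 0 in the left panel, and Ddx60 is so in the reverse sense. In the right panel Isg15, Irf7, Ifit2 and Rsad2 are among them, and Rtp4, Oas1a and Oas3 are so in the reverse sense.

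The Kupffer cell-like class (95 and 207 cells) had 3 of 17 members higher and none lower past 1.5-fold, beside 14.6% and 8.58% of 3591 genes, a share close to the background, with a median of 0.22 against 0.028. Irf7 stood apart at 1.98 (1.35 to 2.67), with a UMI in 17.9% and 36.2% of the cells. Herc6 (23.9 and 59.9 CPM, 1.32, 0.34 to 2.43) and Ddx58 (37.0 and 59.9 CPM, 0.70, −0.14 to 1.60) were the other 2. The lowest ratios were those of Ifi35, Irf9, Parp14 and Oasl2, from −0.37 to −0.28, all with intervals that span 0. The make-up of the class moved with these values: the resident macrophage genes Clec4f (80.4 and 315 CPM), Cd5l (111 and 585 CPM) and Vsig4 (89.1 and 191 CPM) were higher in Tg, and the monocyte-derived macrophage genes Cx3cr1 (996 and 448 CPM) and Ccr2 (509 and 226 CPM) were lower, while C1qa was at 3771 and 3559 CPM. The hepatocyte list moved too, from 0.508% to 4.07% of UMIs. The part of either in the Irf7 value was not tested.

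In the monocyte or macrophage-like class (325 and 324 cells), 2 of 29 members were higher and none lower past 1.5-fold, beside 6.54% and 8.72% of 8887 genes, with a median of 0.086. Ifi44 (5.25 and 10.0 CPM) and Oas2 (6.68 and 10.7 CPM, 0.67, −0.092 to 1.45) were the 2, while Ifit1 (27.9 and 19.1 CPM, −0.55, −1.02 to −0.088), Zbp1 (−0.45, −0.68 to −0.22) and Parp14 (−0.44, −0.65 to −0.22) were lower short of 1.5-fold. Ifi27l2a was at 902 (874 to 931) and 1228 (1189.7 to 1267) CPM, and the hepatocyte list at 0.351% and 1.64% of UMIs. The name of this class may cover only some of its cells: resolution 2.0 also gave cells that carried markers of dendritic cells. The resolution 2.0 groups, called parts here, were named anew over all kept cells. Together they hold more cells than this class. The monocyte-like part (150 and 122 cells) had 1 of 26 members higher and 2 lower (5.41% and 9.24% of 5901 genes) and a median of −0.28, and the part named by markers of type 1 dendritic cells (190 and 224 cells) had 6 of 27 higher and 1 lower (7.28% and 9.4% of 8247 genes) and a median of 0.28. Isg15 stood at 193 and 107 CPM (−0.85, −1.17 to −0.53) in the monocyte-like part and at 55.9 and 89.6 CPM (0.68, 0.39 to 0.98) in the dendritic one. Irf7 was at 168 and 138 CPM (−0.28, −0.58 to 0.016) and 49.2 and 102 CPM (1.06, 0.76 to 1.36). Ifi27l2a had the reverse pattern, with 1412 and 2554 CPM (0.86) in the monocyte-like part and 536 and 555 CPM (0.049) in the dendritic one.

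Stellate-like cells (60 and 196 cells), the vitamin A-storing pericytes of the sinusoid, had 7 of 19 members higher and none lower past 1.5-fold, but 21.3% and 8.52% of 4637 genes were so as well, and the median was 0.44 against 0.12. Rtp4 stood highest, at 28.4 (12.97 to 53.9) and 123 (102 to 147) CPM (2.11, 1.14 to 3.28). Parp14 was at 53.6 and 115 CPM (1.10, 0.35 to 1.93), and the intervals of the other 5, Stat2, Ifi44, Ifit1, Oasl2 and Trim30a, span 0. Xaf1 (−0.43, −1.09 to 0.27) and Ifit3 (−0.23) were lowest. With cells weighted equally instead of by depth, the median of this class was −0.18. Hepatocyte-list UMIs made up 0.606% and 2.66%.

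Fibroblast or mesothelial-like cells (137 and 89 cells) had 2 of 22 members higher and none lower, beside 6.0% and 10.7% of 7020 genes, with a median of 0.12, and −0.18 with cells weighted equally. Isg15 stood at 38.8 (29.98 to 49.3) and 85.0 (63.9 to 111) CPM (1.13, 0.59 to 1.67), Rtp4 at 44.1 and 66.1 CPM (0.59, 0.0054 to 1.15) and Herc6 lowest at −0.58 (−1.22 to 0.020). Vascular endothelial-like cells (73 and 264 cells) had 2 of 20 higher and 2 lower, beside 9.37% and 10.7% of 5879 genes, with a median of 0.10. Irf7 (0.94, −0.039 to 2.08) and Ifi35 (0.63, −0.12 to 1.45) were the higher 2 and Ifi27l2a (78.5 and 46.5 CPM, −0.76, −1.37 to −0.12) and Herc6 (−0.65, −1.35 to 0.081) the lower 2. Only the Ifi27l2a interval of these 4 leaves out 0. The hepatocyte list stood at 0.374% and 2.02% of UMIs in the fibroblast or mesothelial-like class and at 0.426% and 2.66% in the vascular one.

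B cell-like cells (2040 and 1228 cells) had 2 of 24 members higher and 2 lower, beside 8.64% and 7.95% of 9373 genes, and a median of 0.044 against −0.15. Bst2 stood at 56.2 (51.1 to 61.7) and 95.1 (85.9 to 105) CPM (0.76, 0.56 to 0.96) and Ifih1 at 3.08 and 8.29 CPM (1.43, 0.63 to 2.25). Ifit2 (5.65 and 2.68 CPM, −1.07, −2.18 to −0.10) and Ifit3 (10.3 and 5.37 CPM, −0.94, −1.69 to −0.24) were lower, and 1 WT cell gave 10 of the 80 Ifit3 UMIs. Hepatocyte-list UMIs were 0.783% and 4.21% of the total. Here too cluster 4 was WT (1892 and 9 cells) and cluster 5 Tg (148 and 1219), and within cluster 5 the median was 0.19, with 3 of 15 members higher and none lower (9.17% and 9.62% of 7081 genes).

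Plasma cell-like cells (310 and 55 cells) had none of 20 members higher and 10 lower, but 4.25% of 8542 genes were higher and 47.9% lower, so the class as a whole was lower too: the median of the members was −0.64 and that of all genes −0.56. With scaling factors that centre all genes the median of the members was −0.091 (TMM) or −0.081 (DESeq2). Isg15 stood at 67.8 (62.6 to 73.3) and 11.4 (6.23 to 19.1) CPM (−2.57, −3.45 to −1.82), below the median of the class, and 1 WT cell gave 41 of its 631 UMIs. Ifit1 (81 and 1 UMIs, −3.42, −8.74 to −0.90), Ifit3 (56 and 1 UMIs) and Rsad2 (67 and 0 UMIs) were nearly missing from the 55 Tg cells. In WT, 1 cell gave 27 of the Ifit3 and 1 cell gave 20 of the Ifit1 UMIs. The hepatocyte list was at 0.180% and 0.795% of UMIs.

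Erythroid cell-like cells (465 and 243 cells) had 2 of 6 members higher and 3 lower past 1.5-fold, beside 14.1% and 60.2% of 2503 genes, which centre at −0.89. Isg15 (0.76, 0.53 to 0.99), Bst2 (19.6 and 34.2 CPM, 0.80, 0.22 to 1.37) and Rsad2 (0.35, 0.19 to 0.51) had ratios above 0 there, and relative to the class median they were further above it. A single Tg cell gave 67 of its 236 Isg15 UMIs, and with cells weighted equally the Isg15 ratio was −0.20. Ifi27l2a (36.8 and 5.83 CPM), Parp14 and Trim30a were lower with 141 and 7, 54 and 3 and 53 and 4 UMIs, and the hepatocyte list took 0.431% and 2.60%.

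Hepatocyte-like cells (263 and 4963 cells) had 12 of 23 members higher and 1 lower past 1.5-fold, beside 6.04% and 8.3% of 10398 genes, with a median of 0.67 against −0.028. Isg15 stood at 7.26 (4.70 to 10.7) and 20.6 (19.2 to 22.2) CPM (1.51, 0.93 to 2.14) and Usp18 at 2.32 (1.003 to 4.58) and 7.17 (6.32 to 8.09) CPM (1.62, 0.62 to 2.85). Ifi44 (1 and 96 UMIs, 3.18, 0.66 to 8.49), Ifit1 (3 and 287 UMIs, 3.17, 1.61 to 5.46), Rsad2 (2 and 82 UMIs) and Ifit3 (4 and 137 UMIs) rest on 1 to 4 WT UMIs each. Single Tg cells gave 57 of the Ifit1, 43 of the Ifit3 and 80 of the 755 Isg15 UMIs, and with cells weighted equally the Ifit1 ratio was −0.12. Ifi27l2a was lower, at 10.2 and 6.43 CPM (−0.66, −1.18 to −0.11). In hepatocyte-like cluster 9 (76 and 837 cells, 25.2% and 26.8% of UMIs from the hepatocyte list), 11 of 21 members were higher and none lower (5.97% and 7.38% of 9815 genes), with a median of 0.59, while in cluster 0 (141 and 3116 cells) it was −0.25 over 7 members. The labels describe a preparation of non-parenchymal cells, which hepatocytes are not.

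In the unnamed cluster 2, 8 of 16 members were higher and 1 was lower past 1.5-fold, beside 7.16% and 9.22% of 6966 genes, with a median of 0.51.

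By member, Ifi44 was higher in Tg in each of the 8 classes where it could be compared, and past 1.5-fold in 6, with log2 ratios from 0.15 in vascular endothelial-like to 3.18 in hepatocyte-like cells. Usp18 was likewise higher in 6 of 6 classes (3 past 1.5-fold), Bst2 in 12 of 13 (2 past 1.5-fold), Irf7 in 10 of 12 (3 past 1.5-fold) and Rtp4 in 10 of 11 (3 past 1.5-fold, 1 lower). Isg15 was higher in 10 of 13, with 5 past 1.5-fold and 1 lower, in plasma cell-like cells. Of the RNA sensors, Ddx58 was past 1.5-fold in 1 of 12 classes, Dhx58 in none of 6, Ddx60 in 1 of 8 and Ifih1 in 1 of 10. For all genes, the share past 1.5-fold higher in a class was 4.25% (plasma cell-like) to 21.3% (stellate-like). The share past 1.5-fold lower was 5.3% (lymphocyte-like) to 60.2% (erythroid cell-like). Median ratios over classes were below 0 for Oas3 (−0.23, over 5 classes), Herc6 (−0.16), Parp14 (−0.10), Ifi35 (−0.086), Ifit3 (−0.027) and Ddx60 (−0.0040). Of genes that could be compared in at least 8 classes, 10 of 22 members (45.5%) were higher in Tg in at least 75% of their classes, and so were 9.93% of all 6124 such genes. The classes share the libraries, so these counts are not independent.

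Counting members per cell gives the spread within a class. Each cell was thinned to 1000 UMIs and shallower cells were left out (2 WT and 0 Tg pDC-like, 25 and 66 Kupffer cell-like, 3 and 2 neutrophil-like, 313 and 496 LSEC-like, 101 and 137 lymphocyte-like and 111 and 2669 hepatocyte-like cells). At least 3 of the 30 members were found in 34.9% (30.2 to 39.8) of WT and 38.6% (30.7 to 47.1) of Tg pDC-like cells, and in 41.4% and 43.3% of Kupffer cell-like cells. Among neutrophil-like cells the shares were 22.3% (17.9 to 27.3) and 33.0% (26.4 to 40.1), and among LSEC-like cells 16.5% (14.5 to 18.6) and 20.4% (18.5 to 22.4). Lymphocyte-like cells gave 7.24% (6.50 to 8.04) and 10.2% (9.02 to 11.4). The low reference was 1.74% and 1.38% in erythroid cell-like cells, and 0 of 152 (3 counts, the limit taken for a count of 0, would be 1.97%) and 1.26% in hepatocyte-like cells. Without thinning the shares were 96.5% and 95.9% in pDC-like, 50.2% and 68.9% in neutrophil-like, 61.9% and 51.2% in LSEC-like and 69.4% and 60.7% in lymphocyte-like cells. Leaving out Bst2 and Ifi27l2a, the thinned shares fell to 6.03% and 8.97% in pDC-like cells, below those of LSEC-like cells at 8.57% and 11.4%. They were 17.1% and 21.3% in Kupffer cell-like, 18.2% and 24.2% in neutrophil-like and 4.22% and 5.04% in lymphocyte-like cells. The WT and Tg intervals overlapped in each of these classes.

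**Figure D5:**
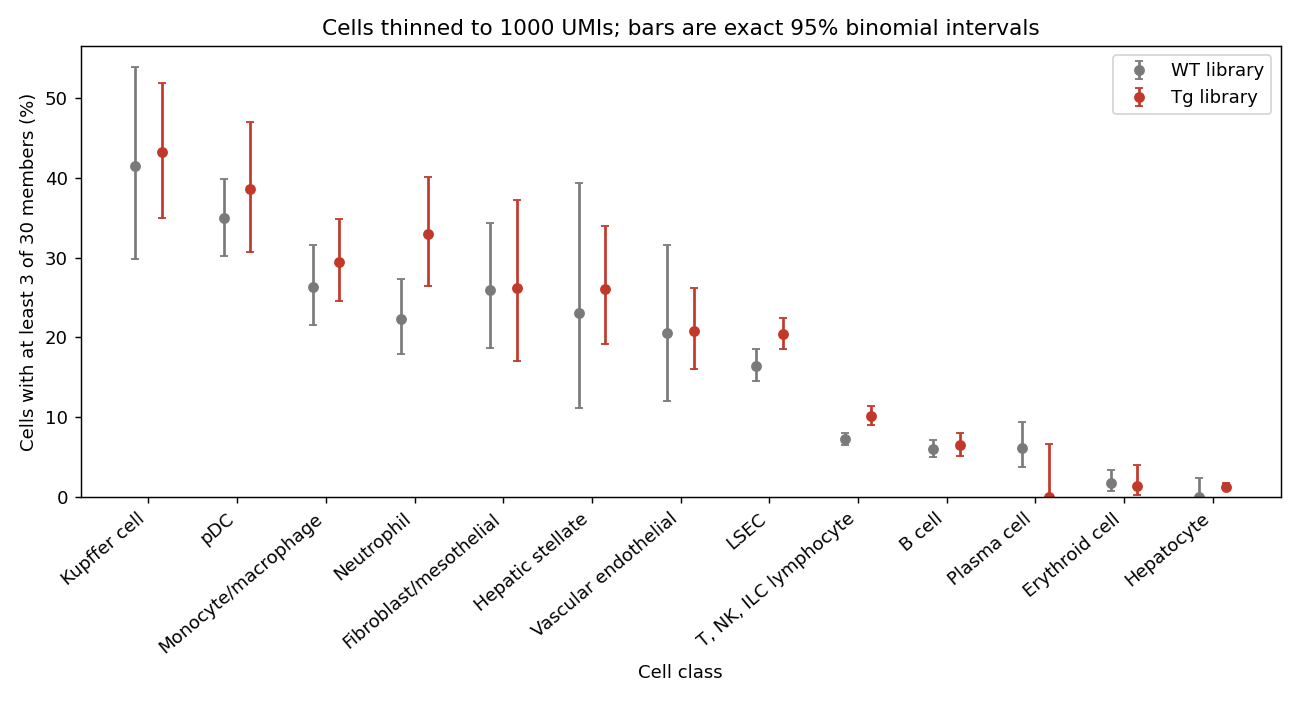
Share of cells (%) with at least 3 of the 30 members after thinning to 1000 UMIs, by class, for the WT (grey) and Tg (red) library; bars are exact binomial intervals at 95% for counting error. Kupffer cell-like and pDC-like cells are highest, and the intervals of WT and Tg part only in lymphocyte-like cells.

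A few cells held many members at once. At 1000 UMIs, 6 or more members were found in 34 of 4500 WT and 28 of 2557 Tg lymphocyte-like cells, in 15 of 1342 and 31 of 1714 LSEC-like cells, in 18 of 318 and 17 of 194 neutrophil-like cells, and in 15 of 2033 and 3 of 1225 B cell-like cells. The highest number in a B cell-like cell was 14 members in WT and 7 in Tg. Such cells were found in both libraries.

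Upstream, the interferons themselves were almost unseen. Over all kept cells, the 20 genes of type I and type III interferons had 9 WT and 3 Tg UMIs in total, with Ifnz at 8 and 2, Ifnb1 at 1 and 1 and the other 18 at 0. Among 10 genes of the receptors and their kinases, none of 9 was past 1.5-fold in lymphocyte-like and monocyte or macrophage-like cells. Of all genes, 8.97% were higher and 5.3% lower in the former and 6.54% and 8.72% in the latter. Tyk2 was the 1 of 9 that was lower in LSEC-like (27.1 and 14.99 CPM, beside 7.41% of all genes) and in pDC-like cells (60.0 and 39.8 CPM, beside 11.7%). In plasma cell-like cells 7 of 9 were lower and in erythroid cell-like cells 5 of 6, beside 47.9% and 60.2% of all genes. In Kupffer cell-like cells 3 of 7 were lower, beside 8.58% of all genes, among them Ifnar1 (137 and 72.4 CPM, −0.92). In stellate-like cells 3 of 7 were higher (Jak1, Jak2 and Ifngr2), beside 21.3% of all genes. A further list holds 18 genes that sense nucleic acid upstream of interferon. In monocyte or macrophage-like cells 1 of 17 was higher and 1 lower past 1.5-fold, beside 6.54% and 8.72% of all genes (median −0.042). These were Tlr3, a sensor of double-stranded RNA (21.5 and 84.6 CPM, 1.98), and Ikbke (17.0 and 5.02 CPM, −1.76). In LSEC-like cells 1 of 14 was higher and 1 lower, beside 7.11% and 7.41% of all genes. Only 4 of the 14 had ratios above 0 (median −0.17). The higher one was Eif2ak2 (PKR), at 33.5 and 52.1 CPM (0.64). It halts protein synthesis on viral RNA and is itself interferon-induced. Of 11 brakes on the pathway, none of 10 was higher in LSEC-like, lymphocyte-like, monocyte or macrophage-like or pDC-like cells past 1.5-fold. Of all genes, 7.11%, 8.97%, 6.54% and 5.41% were higher in these classes. In monocyte or macrophage-like cells 3 of the 10 were lower, beside 8.72% of all genes: Socs3 (62.3 and 23.2 CPM), Socs1 (44.4 and 22.3 CPM) and Ptpn6 (360.3 and 239 CPM). Ptpn6 was the 1 of 10 lower in LSEC-like cells (8.23 and 3.59 CPM), beside 7.41% of all genes. In pDC-like cells Socs3 (11.5 and 6.33 CPM) and Rnaseh2b (17.1 and 9.95 CPM) were the 2 of 10 lower, beside 11.7%.

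Targets that answer preferentially to interferon gamma were mostly lower in Tg monocyte or macrophage-like cells. There 11 of 15 were lower and 1 was higher past 1.5-fold, beside 8.72% and 6.54% of all genes, with a median of −1.12. The median of the members was 0.086 in this class and −0.28 in the monocyte-like part at resolution 2.0. The chemokine Cxcl9 stood at 661 and 148 CPM, and the guanylate-binding protein genes Gbp2 and Gbp5 at 217 and 66.5 CPM and 62.3 and 16.0 CPM. The monocyte-like and dendritic parts at resolution 2.0, described above, were not equally large in the 2 libraries, and the share of this in the values was not tested. In LSEC-like cells none of 13 was lower and 1 was higher (median −0.083, beside 7.41% and 7.11% of all genes), and in lymphocyte-like cells none of 14 was lower and 1 was higher (median −0.13, beside 5.3% and 8.97%). In pDC-like cells 1 of 10 was higher, Iigp1 (28.2 and 64.2 CPM), and 2 were lower, beside 5.41% and 11.7%.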

How the data were processed

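The authors deposited whole-number UMI counts per gene and barcode, 1 matrix per library, from 10x version 3 libraries of GRCm38 (mm10) reads. The submitters' processing notes name Cell Ranger 6.1.2, and the matrix headers name 5.0.1. The series text also names SoupX and Harmony, but the deposited counts are whole numbers and were taken as not corrected for ambient RNA.

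Cells with at least 500 UMIs, at least 200 genes, at most 20% mitochondrial UMIs and a Scrublet score of at most 0.2 were kept (the automatic limit of Scrublet called 1 WT and 0 Tg cells, so an earlier limit was used, which removed 469 and 387). Cells were clustered on 2000 variable genes, without the members and the other interferon lists, with 30 principal components, 15 neighbours and Leiden resolution 1.0 (scanpy 1.11.5, Python 3.11.15). Classes were named from marker lists. The naming rule was set after the clusters were seen and revised once: the first version left the pDC cluster unnamed, so dendritic classes were then treated as related, the demand that own markers be among the top 10 genes was kept for shallow clusters only, and a cycling cluster was left unnamed. T, NK and ILC cells were pooled.

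UMIs were summed per class and library in the 13 classes with at least 50 cells in each. Counting error was given by exact intervals, and no test of the groups was possible with 1 library each. Each class names the members with the highest level and up to 5 of the highest and lowest ratios. TMM (edgeR 4.0.16) and DESeq2 1.42.0 factors served as alternative scalings only. The ratio step was checked on simulated counts. These were independent draws per gene and lack the clumping of UMIs in single cells given above, so the check does not cover it. The members and lists were chosen with earlier results of these data known.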

Additional observations from a re-analysis of the deposited data

Results flagged for a closer look

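For 7 members the ratio of Tg over WT lay past 1.5-fold in opposite directions in different classes, with counting intervals that leave out 0. Stat2, Irf9, Herc6, Trim30a and Rtp4 were also past 1.5-fold in both directions, but without such intervals on both sides. None of these differences between classes was tested, since each rests on the same 2 libraries. The log2 ratio of Ifit1 was 3.17 in hepatocyte-like and −3.42 in plasma cell-like cells, on 3 and 287 UMIs and on 81 and 1 UMIs. Rsad2 was at 1.95 in hepatocyte-like cells and at most −1.56 in plasma cell-like cells, where Tg held no UMI. Ifit3 was at 1.69 and −2.89, and Isg15 at 1.51 and −2.57, in the same pair of classes. Hepatocyte-like cells held 3442855 WT and 36562348 Tg UMIs, and plasma cell-like cells 9305019 and 1229027. In both classes Ifit1, Rsad2, Ifit3 and Isg15 were higher in the deeper library, and the part of depth was not tested. Single cells gave many Ifit1 and Ifit3 UMIs in both classes, as given above, which the intervals do not cover. With cells weighted equally, the Ifit1 ratio in hepatocyte-like cells was −0.12. Ifit2 was at 1.82 in pDC-like and −1.07 in B cell-like cells. Ifi27l2a was at 0.91 in lymphocyte-like and −2.66 in erythroid cell-like cells, and it was past 1.5-fold higher in 3 classes and lower in 4. Parp14 was at 1.10 in stellate-like and −2.50 in erythroid cell-like cells. In plasma cell-like and erythroid cell-like cells the median of all genes was itself −0.56 and −0.89.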

How the results depend on the processing

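The median log2 ratio of the members stayed above 0 in every alternative for pDC-like (0.40 to 0.53), neutrophil-like (0.31 to 0.57), Kupffer cell-like (0.13 to 0.37) and LSEC-like cells (0.19 to 0.50, the highest in cluster 6 alone), subtraction of the hepatocyte profile included. With cells weighted equally, it was −0.18 in fibroblast or mesothelial-like and −0.18 in stellate-like cells. In hepatocyte-like cells it was 0.29 with at most 10% mitochondrial UMIs and −0.25 in cluster 0 alone. It was −0.28 in monocyte or macrophage-like cells at resolution 2.0, 0.30 in vascular endothelial-like cells with doublets kept, and −0.091 (TMM) or −0.081 (DESeq2) in plasma cell-like cells. In erythroid cell-like cells it was −0.023 (TMM) or 0.039 (DESeq2). Among lymphocyte-like cells it was 0.085 in cluster 15, −0.093 in cluster 24 and −0.021 in the NK cell or ILC1-like clusters, which have fewer UMIs. These single clusters, and the split of T from NK cells, were chosen after seeing the data. The log2 ratio of the share of cells with at least 5 members was 0.85 in LSEC-like and 0.78 in pDC-like cells, against 0.31 and 0.15 at 3 members. The summed level of pDC-like cells was the highest in both libraries under all settings. In WT it was 4374 (doublets kept) or 4739 (cells weighted equally) CPM. In Tg it was 5715 (doublets kept), 5717 (thinned) or 6372 CPM (hepatocyte profile subtracted). No setting left out Bst2, which stood at 2883 and 3337 CPM in pDC-like and at 330 and 384 CPM in Kupffer cell-like cells. The first rank of pDC-like cells rests on this gene. Among 3182 ratios of single members under the alternatives, direction was followed only from main ratios past 1.5-fold with intervals clear of 0. Changes of direction of smaller ratios were not counted. Of the ratios followed, 6 changed direction. With cells weighted equally these were Isg15 in erythroid cell-like cells (−0.20) and, in hepatocyte-like cells, Ifit1 (−0.12), Ddx60 (−0.54) and Ifi27l2a (0.30). Irf9 in thinned hepatocyte-like cells (−0.30) and Bst2 in erythroid cell-like cells after subtraction (−0.069) were the others. TMM scaling moved all ratios by 0.83 in erythroid cell-like, 0.55 in plasma cell-like, 0.18 in neutrophil-like, 0.14 in B cell-like, 0.13 in LSEC-like and −0.12 in stellate-like cells, and by under 0.1 in the other compared classes. The causes of these shifts were not tested. No paired analysis was possible because each group is 1 library. Depth limits the thin classes: plasma cell-like Tg cells number 55.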
